A study of Rattus norvegicus with 18 samples.

Results

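The miR-15 family is a group of miRNAs that share the bases by which a miRNA recognises its target messages. In the rat heart files it was represented by 10 of 599 listed rows. They were the 5p and 3p arms of miR-15a, miR-15b, miR-16, miR-195 and miR-497, taken by name. The rule for the rows uses no measured value, although the family was picked for description with earlier results of these data known. A precursor hairpin is cut into a 5p and a 3p arm. In this family the 5p arm is the guide that is loaded into the silencing complex, and the 3p arm is mostly discarded. Guides of the family repress messages for cyclins, checkpoint kinases and the survival factor BCL2. In the heart the family, and miR-195 above all, is known for the withdrawal of muscle cells from the cell cycle after birth. Its members have also been studied in hypertrophy and in injury by lack of blood flow.

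Small RNA from heart tissue was sequenced in 18 libraries of 3 groups of 6. Wistar Kyoto rats (WKY), the normotensive control strain, were labelled Normal. Spontaneously hypertensive rats (SHR), an inbred strain that develops high blood pressure, were labelled Hypertension, and the remaining 6 libraries, titled QDG, were labelled QDG Treatment. The series' design text names NS and QDG as what rats were given, without spelling out either, and gives no age, dose or length of treatment. It describes QDG as given to SHR, and on that ground alone the QDG libraries were taken as SHR, since their own labels name no strain. Strain, blood pressure and treatment therefore cannot be told apart in SHR against WKY or in QDG against WKY. Nothing in the labels states that each library came from its own rat, so p-values measure only the spread between these libraries, which may be technical. Heart tissue holds many cell types, so fewer cells of a type and less miRNA per cell cannot be told apart.

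Values are read counts scaled by the authors to 1000000 (RPM), and reads over the listed miRNAs came to between 6420666 and 10169581 per library. The RPM values of a library summed to between 1338745 and 1508772, so an RPM value is not a share of 1000000 listed reads. Heart muscle miRNAs were abundant in every library, with a summed level of 499501 to 620182 RPM in WKY, 504470 to 587499 RPM in SHR and 487333 to 575474 RPM in QDG over 6 of 6 markers. WKY replicate 1 stood apart from its group, and changes of the tested family rows against WKY are also given without it. All 5 guides were lowest in that library among WKY, so leaving it out raises the WKY mean of each.

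The sequences are shown because the family is defined by them, and because near-identical members may share reads. In each, the capitals mark the seed, bases 2 to 8 from the 5′ end, which pairs with the target. All are mature sequences from RefSeq (assembly GRCr8), matched by name for 8 of 10 rows. The table held no entry for the arms of miR-15a.
miR-16-5p: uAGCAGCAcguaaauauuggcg
miR-195-5p: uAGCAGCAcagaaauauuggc
miR-15b-5p: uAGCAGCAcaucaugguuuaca
miR-497-5p: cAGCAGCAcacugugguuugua
miR-322-5p: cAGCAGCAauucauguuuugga
miR-503-5p: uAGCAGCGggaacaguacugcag
The first 4 guides have the same 7-base seed, AGCAGCA. It was carried by 5 of the 543 listed miRNAs with a sequence in the table (0.921%), searched at that position on the given strand only. The fifth was miR-322-5p, whose gene lies on the X chromosome beside that of miR-503. The seed of miR-503-5p is AGCAGCG. Over their whole length, seed included, miR-16-5p and miR-195-5p had 19 of 21 bases in common. For miR-15b-5p and miR-497-5p it was 16 of 22, and for miR-16-5p and miR-497-5p only 11 of 22. Beyond the seed these pairs shared 11 of 13, 9 of 14 and 4 of 14 bases in the same order. The longest run of bases that miR-16-5p and miR-195-5p share is 10. No source used here says how reads matching both were counted, so the split between them is uncertain.

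The genes form pairs on the chromosomes. In GRCr8, Mir15b and Mir16 lie 51 bases apart on chromosome 2, both within the span of Smc4, which encodes a condensin subunit. Mir497 and Mir195 lie 255 bases apart on chromosome 10. The hairpins of miR-16 and miR-195 are shown with both arms in capitals, since their guides are so alike and yet their 3p arms were found at very different levels.
Mir16 (chr2:155555327-155555421, plus strand): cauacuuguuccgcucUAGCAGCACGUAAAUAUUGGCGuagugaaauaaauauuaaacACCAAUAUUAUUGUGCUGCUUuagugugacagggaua
Mir195 (chr10:55450495-55450581, plus strand): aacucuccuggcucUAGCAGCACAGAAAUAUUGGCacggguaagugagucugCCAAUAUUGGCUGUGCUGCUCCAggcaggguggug

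miR-16-5p was the most abundant of the family in every library, followed by miR-195-5p and miR-497-5p. Over the 18 libraries the mean level of miR-16-5p was 1062 RPM, which placed it 65th of 599 rows. miR-195-5p had a mean of 620.01 RPM and miR-497-5p of 193 RPM. The 3p arm of miR-195 came next at 78.3 RPM, ahead of the guides miR-15a-5p at 59.6 RPM and miR-15b-5p at 42.8 RPM. miR-15b-3p (7.19 RPM) and miR-16-3p (4.44 RPM) were scarce. RPM values of different miRNAs are also affected by how well each sequence is ligated and amplified, which was not measured here.

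Most of this order held library by library. miR-16-5p exceeded miR-195-5p in 18 of 18 libraries, 1.71-fold by the means, although their ranges over all libraries overlapped. The same was true of miR-15a-5p over miR-15b-5p (18 of 18, 1.39-fold). miR-195-3p exceeded miR-15a-5p in 17 of 18 libraries and miR-15b-3p exceeded miR-16-3p in 16 of 18, so these neighbours were not cleanly separated. miR-497-3p exceeded miR-15a-3p in only 9 of 18. The ranges of miR-195-5p and miR-497-5p did not overlap, nor did those of miR-497-5p and miR-195-3p, or of miR-15b-5p and miR-15b-3p.

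**Figure D1:**
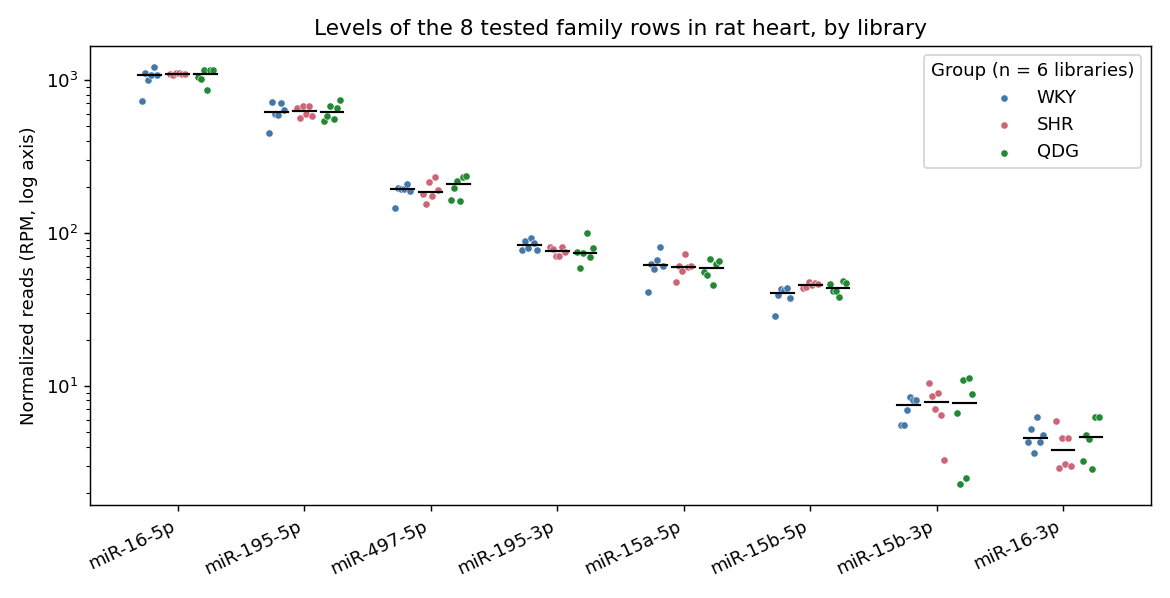
Level of each of the 8 tested family rows in RPM (log axis), 1 point per library and a bar at the median of each group of 6. The rows span from a mean of 1062 RPM for miR-16-5p to 4.44 RPM for miR-16-3p, and the 3 groups of each row lie close together.

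The 2 remaining rows were at the limit of detection. miR-15a-3p had 17 reads in all 18 libraries together, with 0 to 3 per library and 7 libraries at 0. miR-497-3p had 31 reads, with 0 to 3 per library and 2 libraries at 0. A count of 0 allows a level of up to 0.405 to 0.674 RPM, depending on the library (3 reads, counting error only). Both rows stayed under 1 RPM in every library and did not pass the filter of the main test, so 8 of 10 rows entered it. With no filter limma called neither in any comparison (adjusted p of 0.575 to 0.973).

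Together the 5 guides made up a small part of the heart's miRNA, from 0.0969% of listed reads in WKY replicate 1 to 0.155% in QDG replicate 6. Their sum ran from 1398 to 2250 RPM in WKY (median 1980), from 1886 to 2104 RPM in SHR (median 2009) and from 1665 to 2239 RPM in QDG (median 2014). As a percentage of the reads over all miRNAs, WKY had 0.134 ± 0.0194%, SHR 0.144 ± 0.00730% and QDG 0.140 ± 0.0139% (SD over 6 libraries). The ranges of the 3 groups overlapped, and no test was made of the sum. Within it miR-16-5p accounted for 53.3 ± 1.05% in WKY, 54.4 ± 1.80% in SHR, and 53.4 ± 1.70% in the QDG libraries (SD over 6 libraries). miR-195-5p held 31.8 ± 1.28%, 30.9 ± 1.35% and 31.4 ± 1.57% in the same order. The share of miR-15b-5p was 2.02 ± 0.161% in WKY, 2.27 ± 0.0672% in SHR and 2.22 ± 0.197% in QDG.

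In SHR against WKY, the comparison that asks what differs in the hypertensive strain, none of the 8 tested rows passed the test on the authors' scaling. miR-15b-5p came nearest. The test was limma on log2(RPM + 1) over the 410 miRNAs that reached 1 RPM in at least 6 libraries, with Benjamini-Hochberg adjustment and a threshold of 0.05. It called 23.2% of all tested miRNAs and 0 of 8 family rows. At an unadjusted p under 0.05 it gave 34.4% of all miRNAs and 1 of 8 rows, and edgeR on the recovered reads called 1 row and 21.7% of all. The median log2 change was 0.03 over the 5 guides and -0.07 over all 410 miRNAs.

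miR-15b-5p, the guide encoded beside miR-16 within Smc4, ran from 28.5 to 43.4 RPM in WKY (median 40.6) and from 43.8 to 47.5 RPM in SHR (median 45.8). Every SHR library thus lay above every WKY library by a narrow margin, which closed when all listed reads were the total (43.05 RPM at the lowest in SHR, 43.10 RPM at the highest in WKY), and WKY replicate 1 was well below the rest of its group. Such a lack of overlap was seen for 10.2% of all tested miRNAs and for 1 of the 8 family rows. The log2 change was 0.24 ± 0.11 (SE), a 1.18-fold difference with a 95% confidence interval of 1.01-fold to 1.37-fold (limma adjusted p = 0.117, 6 of 6 SHR libraries above the WKY mean).

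This value depended on how libraries were scaled. With TMM scaling, which sets libraries level over the bulk of miRNAs, miR-15b-5p rose by 0.29 on the log2 scale (limma adjusted p = 0.0116), where 22.4% of all miRNAs were called. RLE scaling gave 0.31 (limma adjusted p = 0.00577), upper quartile scaling 0.34 (0.00645) and a total without the 10 most abundant miRNAs 0.29 (limma adjusted p = 0.0266), while all listed reads as the total gave 0.28 (0.0550). On the recovered reads edgeR gave 0.29 (adjusted p = 0.0115), limma-voom 0.29 (0.00973) and DESeq2 0.32 (0.00162). The background was 22.7% of miRNAs called with RLE scaling, with the total without the 10 most abundant and with limma-voom, 21.2% with upper quartile scaling, 21.5% with all listed reads, 21.7% with edgeR and 23.4% with DESeq2. In all, 7 of 15 alternative settings called it and all 15 had it higher in SHR. These settings are not separate checks. edgeR and limma-voom also used TMM factors, and DESeq2 scales much as RLE does. The settings without a call kept the authors' scaling, apart from all listed reads as the total. The lowest SHR library stayed above the highest WKY library with TMM (44.4 against 42.1 RPM) and RLE scaling (44.4 against 41.7 RPM). The same held with upper quartile scaling (44.6 against 40.8 RPM) and the total without the 10 most abundant (43.8 against 42.6 RPM). The share of all miRNAs without overlap was not taken for these scalings. Without WKY replicate 1 the authors' scaling gave 0.15 (limma adjusted p = 0.216, with 25.9% of all miRNAs called) and TMM scaling 0.25 (0.0267, with 21.7%). Under TMM scaling each single library could be left out with the call kept (limma adjusted p of 0.00831 to 0.0267).

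**Figure D2:**
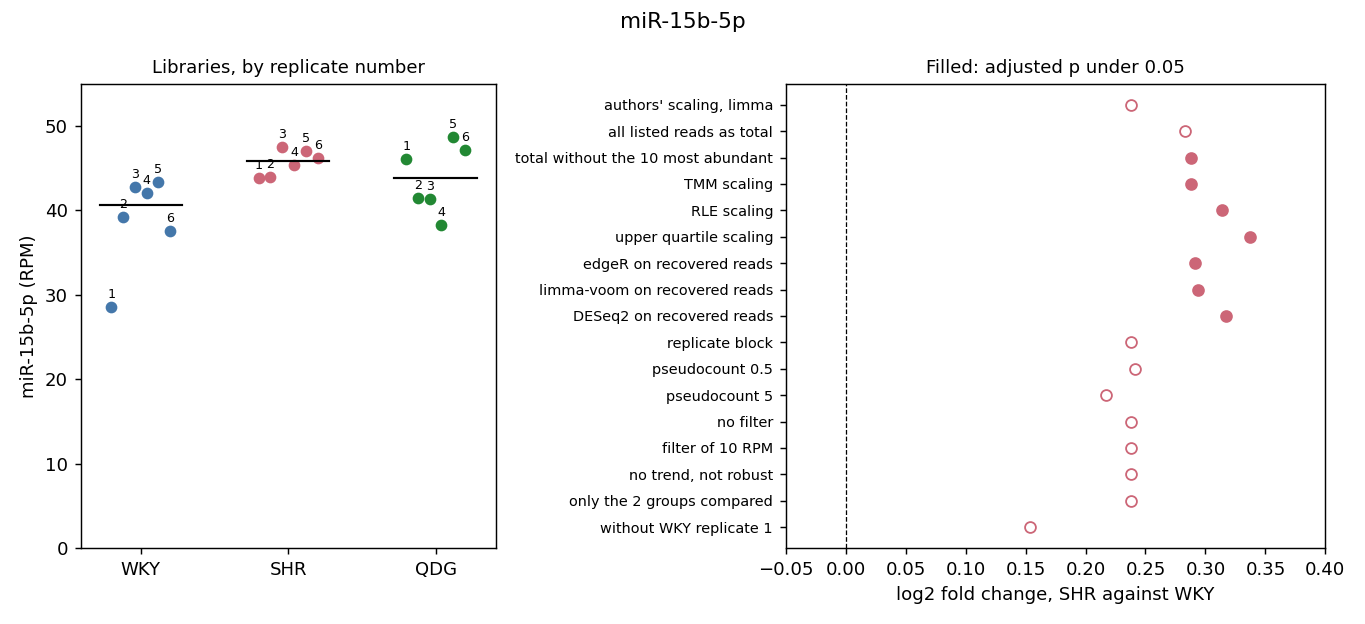
Left, miR-15b-5p in RPM in each library, numbered by replicate, with a bar at the group median. Right, its log2 fold change in SHR against WKY under each setting, filled where the adjusted p was under 0.05. The 6 SHR libraries lie at 43.8 RPM or above, and the change lies between 0.15 and 0.34 under the settings shown.

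miR-16-5p, its abundant neighbour, showed no such separation. It ran from 732 to 1216 RPM in WKY (median 1075) and from 1067 to 1113 RPM in SHR (median 1095). The SHR libraries fell in a narrow band inside the WKY range. Its log2 change was 0.10 ± 0.10 (SE, limma adjusted p = 0.529), and the 95% confidence interval of the fold reached from 0.927 to 1.24. Without WKY replicate 1 the change was 0.0053 (limma adjusted p = 0.970). DESeq2 alone called it, with 0.17 (adjusted p = 0.0489), while the adjusted p over all 15 alternatives went up to 0.582. The ratio of miR-16-5p to miR-15b-5p, which does not depend on scaling, was 23.2 to 28.6 in WKY and 23.2 to 25.1 in SHR, with medians of 26.8 and 23.9.

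miR-15a-5p, which in mammals is encoded beside a further copy of miR-16, ran from 40.7 to 80.7 RPM in WKY (median 61.7) and from 47.6 to 72.1 RPM in SHR (median 59.97). The groups overlapped almost completely. Its log2 change was -0.03 ± 0.13 (SE, limma adjusted p = 0.887, 95% confidence interval 0.809-fold to 1.18-fold), and its sign turned under 8 of the alternatives. Without WKY replicate 1 it was -0.14 (limma adjusted p = 0.414). The ratio of miR-15a-5p to miR-15b-5p had a median of 1.59 in WKY (1.35 to 1.86) and 1.29 in SHR (1.09 to 1.59).

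The chromosome 10 pair was level between the strains. miR-195-5p, the member best known for stopping heart muscle cells from dividing, ran from 452 to 711 RPM in WKY (median 619) and from 560 to 675 RPM in SHR (median 623). miR-497-5p ran from 145 to 210 RPM in WKY (median 193) and from 155 to 232 RPM in SHR (median 184). For both, libraries of the groups were intermixed. The log2 change was 0.03 ± 0.11 for miR-195-5p (SE, limma adjusted p = 0.875) and 0.02 ± 0.12 for miR-497-5p (SE, limma adjusted p = 0.921). Without WKY replicate 1 these were -0.06 and -0.05 (limma adjusted p of 0.694 and 0.782). Their confidence intervals leave room for folds of 0.878 to 1.19 and of 0.858 to 1.198. The ratio of miR-195-5p to miR-497-5p was 3.02 to 3.65 in WKY, 2.90 to 3.65 in SHR and 2.83 to 3.44 in QDG.

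Of the 3p arms, miR-195-3p ran from 76.9 to 92.2 RPM in WKY (median 82.7) and from 70.3 to 81.1 RPM in SHR (median 76.1). All 6 SHR libraries lay below the WKY mean, but the ranges overlapped. Its log2 change was -0.14 ± 0.11 (SE, limma adjusted p = 0.406). miR-16-3p had -0.22 ± 0.18 (adjusted p = 0.434) and miR-15b-3p 0.01 ± 0.31 (adjusted p = 0.980), the latter with an interval of 0.640-fold to 1.59-fold. Without WKY replicate 1 the 3 arms had -0.16, -0.24 and -0.05 in the same order. With 11 to 65 reads of miR-15b-3p and 17 to 36 reads of miR-16-3p per library, such intervals leave room for changes in either direction.

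Markers of other cell types are set against the 23.2% of all miRNAs called in SHR against WKY and the 17.8% called in QDG against WKY. In SHR against WKY none of 4 red blood cell miRNAs passed in limma, a list of interest because miR-16 is abundant in red cells, and their sum ran from 3760 to 5778 RPM in WKY and from 4373 to 6058 RPM in SHR. Of 5 leukocyte miRNAs 1 was higher and 0 were lower, with sums of 1094 to 1563 RPM in WKY and 1223 to 1407 RPM in SHR. Neither of the 2 endothelial, none of the 4 smooth muscle and none of the 3 fibroblast miRNAs passed in limma, and of 6 heart muscle miRNAs 2 were higher. In QDG against WKY 2 leukocyte and 2 heart muscle miRNAs were higher and no other marker passed in limma. No listed marker was at 0 in every library. The part of these cell types in the level of miR-15b-5p was not tested.

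QDG against SHR asks whether heart miRNAs differed with the treatment, within the strain if the QDG libraries are SHR as the design text has it. No family row passed, and none came near. limma called 0% of the 410 miRNAs and 0 of 8 rows, edgeR and DESeq2 called 0 too (each 0% of all), and at an unadjusted p under 0.05 it gave 3.66% of all miRNAs and 0 of 8 rows. The median log2 change was -0.03 over the 5 guides and 0.02 over all miRNAs.

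In QDG, miR-16-5p ran from 864 to 1157 RPM (median 1095), which took in the whole SHR range. Its log2 change against SHR was -0.05 ± 0.10 (SE, limma adjusted p = 0.983), with an interval of 0.835-fold to 1.12-fold. miR-195-5p ran from 539 to 738 RPM (median 618) and had 0.00 ± 0.11 (SE, 0.859-fold to 1.16-fold). miR-497-5p, from 162 to 235 RPM (median 207), had the highest value among the guides at 0.07 ± 0.12 (SE, 0.891-fold to 1.24-fold). miR-15a-5p ran from 45.6 to 67.8 RPM (median 58.9) with -0.03 ± 0.13 (SE), and miR-15b-5p from 38.2 to 48.7 RPM (median 43.8) with -0.06 ± 0.11 (SE). For each guide QDG and SHR libraries were intermixed. Over the 5 guides the intervals reached from 0.809-fold to 1.24-fold, which leaves room for changes of that size.

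The 3p arms were more scattered in QDG. miR-195-3p ran from 58.4 to 99.3 RPM (median 74.1) against -0.01 ± 0.11 (SE) on the log2 scale, and QDG replicate 4 had the highest value of all 18 libraries. miR-15b-3p ran from 2.27 to 11.3 RPM (median 7.69) and had -0.19 ± 0.31 (SE), while miR-16-3p ran from 2.84 to 6.26 RPM (median 4.599) and had 0.17 ± 0.18 (SE). The limma adjusted p of each was 0.983.

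**Figure D3:**
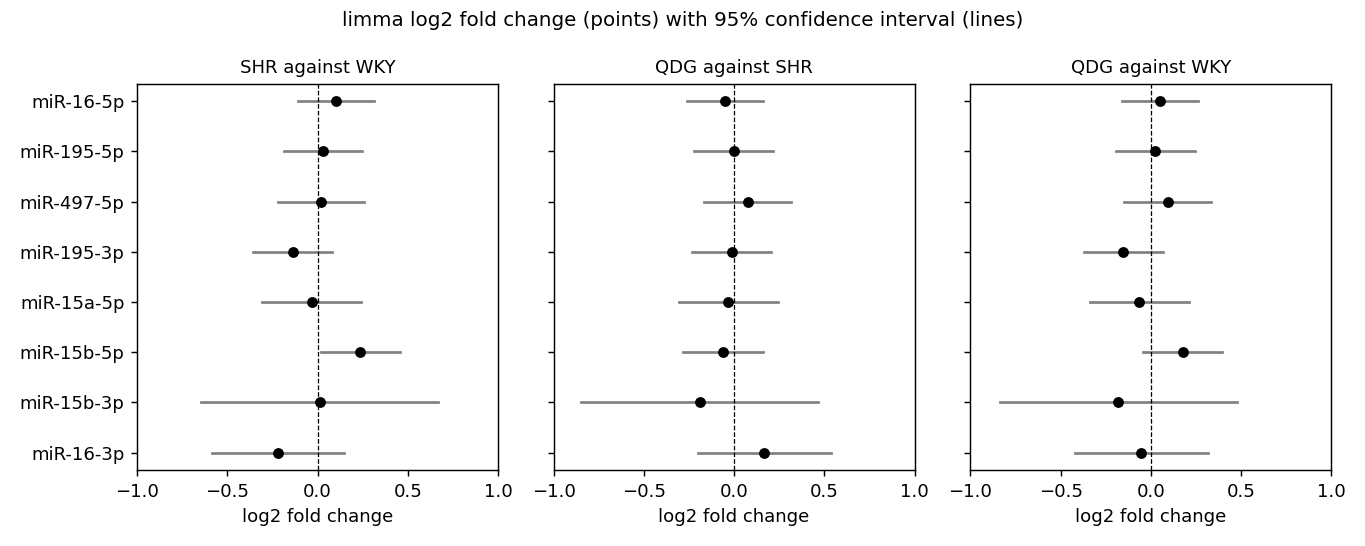
log2 fold change from limma (points) and its 95% confidence interval (lines) for the 8 tested rows in each comparison. The interval of miR-15b-5p in SHR against WKY, 1.01-fold to 1.37-fold, is the only one that does not reach 0 on the log2 scale, and the scarce miR-15b-3p and miR-16-3p have the widest intervals.

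In QDG against WKY, which shares its WKY libraries with the first comparison and its QDG libraries with the second, limma called 17.8% of the 410 miRNAs and 0 of 8 family rows. At an unadjusted p under 0.05 it gave 31.0% of all miRNAs and 0 of 8 rows. edgeR called 0 rows and 20.2% of all miRNAs, and DESeq2 called 1 row and 21.2% of all. No row was without overlap between the groups, against 8.05% of all tested miRNAs. miR-15b-5p was again the highest of the guides with 0.18 ± 0.11 (SE, limma adjusted p = 0.272, 5 of 6 QDG libraries above the WKY mean). It passed under 2 of 15 alternatives, upper quartile scaling with 0.28 (limma adjusted p = 0.0249, 20.2% of all called) and DESeq2 with 0.23 (adjusted p = 0.0407), and had 0.09 without WKY replicate 1 (limma adjusted p = 0.491, 19.5% of all called). miR-16-5p had 0.05 ± 0.10, miR-195-5p 0.03 ± 0.11, miR-497-5p 0.09 ± 0.12 and miR-15a-5p -0.06 ± 0.13 (SE), with limma adjusted p of 0.632 to 0.881. Without WKY replicate 1 these 4 guides had -0.04, -0.06, 0.02 and -0.17 in the same order (limma adjusted p of 0.307 to 0.900). Among the 3p arms miR-195-3p had -0.15 ± 0.11 (SE, limma adjusted p = 0.357), miR-15b-3p -0.18 ± 0.31 and miR-16-3p -0.05 ± 0.18. Without WKY replicate 1 these arms had -0.17, -0.24 and -0.07 in the same order (limma adjusted p of 0.260 to 0.819).

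The share of the reads of each name that came from the 3p arm set the members apart from one another. For miR-195 the 3p arm gave 11.3% of the reads of both arms (mean of 18 libraries, 9.09 to 15.2%), and for miR-15b 14.2% (5.19 to 20.7%). For miR-16 it gave 0.417% (0.272 to 0.580%), for miR-15a 0.303% and for miR-497 0.166%. The miR-195 and miR-16 shares did not overlap in any library, although the guides shown above differ at 2 of 21 bases. The members of each chromosomal pair differed as well, with a higher 3p share for miR-15b than for miR-16 and for miR-195 than for miR-497. Reads of miR-16-5p may also come from the further copy of miR-16 beside miR-15a. The miR-16 share is therefore that of the name, and that of the Mir16 hairpin alone was not measured.

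**Figure D4:**
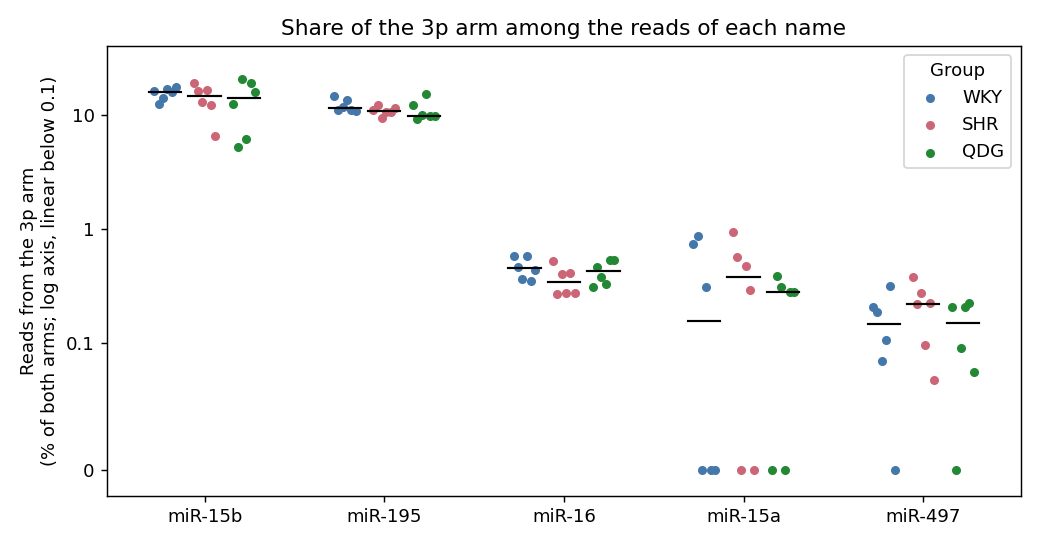
Reads of the 3p arm as a percentage of the reads of both arms, for each name, 1 point per library and a bar at the group median (log axis, linear below 0.1%). miR-15b and miR-195 lie between 5.19 and 20.7%, and the other 3 names lie below 1%.

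The balance of the arms, taken as log2(5p RPM + 1) minus log2(3p RPM + 1), was compared between groups for miR-15b, miR-16 and miR-195, the 3 names with both arms tested. In 9 exact permutation tests (two-sided, 6 libraries against 6), where the smallest possible p is 0.00216, none passed after Benjamini-Hochberg adjustment (adjusted p of 0.584 to 0.946), and none had an unadjusted p under 0.05. The smallest was for miR-16 in SHR against WKY, with a balance of 7.81 ± 0.327 in SHR and 7.49 ± 0.288 in WKY (SD, 6 libraries each, exact permutation p = 0.110). miR-195 had 2.85 ± 0.205 in WKY, against 3.02 ± 0.139 in SHR and 3.03 ± 0.316 with QDG (SD over 6 libraries). In these the libraries of the groups overlapped.

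In some libraries the guides were low or high together. In WKY replicate 1 all 5 guides had the lowest value of their group, at 0.660 to 0.751 of the group median. In QDG replicate 4 the 5 guides lay at 0.775 to 0.900 of the median, and 4 of them had the lowest value of the group. In WKY replicate 5 the highest value was reached by 4 of 5 guides. In SHR no library held all the extremes: the lowest values were split between replicate 1 (2 guides) and replicate 2 (3 guides), and the highest between replicates 3 (2), 4 (2) and 5 (1). WKY replicate 1 also had the highest share of miR-1b, the dominant heart miRNA, with 33.1% of listed reads against 24.1 to 27.4% in the other 17 libraries. In its group it had the highest sum of heart muscle markers and the lowest sums of red blood cell, leukocyte and endothelial markers. The lowest WKY sum was in replicate 2 for smooth muscle markers and in replicate 6 for fibroblast markers. With TMM scaling WKY replicate 1 kept the lowest value of all 5 guides, at 0.800 to 0.920 of the median. The part of the miR-1b share in these low values was not tested. Leaving out WKY replicate 1 and QDG replicate 4 together gave 0 called rows in each comparison, where limma called 27.1% of all miRNAs in SHR against WKY, 0% in QDG against SHR and 17.1% in QDG against WKY. Nearest to the threshold was then miR-195-3p in QDG against WKY, with a log2 change of -0.26 (limma adjusted p = 0.0588).

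**Figure D5:**
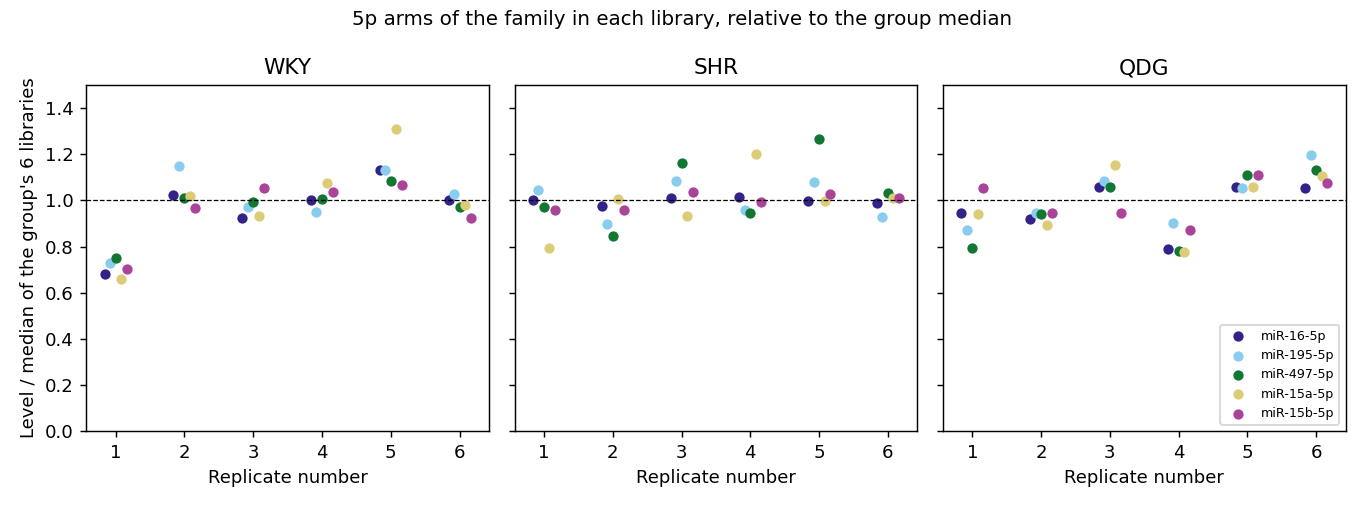
Level of each 5p arm divided by the median of its group's 6 libraries, by replicate number. The 5 guides of WKY replicate 1 lie together at 0.660 to 0.751, and those of QDG replicate 4 at 0.775 to 0.900.

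Among miRNAs of at least 10 RPM outside the family, the ones most alike in pattern were found by the mean absolute difference of log2(RPM + 1) over 18 libraries, each miRNA centred on its own mean. For miR-16-5p these were miR-17-5p at 0.07, miR-20a-5p at 0.08 and miR-191a-5p at 0.08, against a median of 0.19 over the 243 miRNAs compared. For miR-195-5p they were miR-29a-3p, miR-17-5p and miR-145-3p at 0.10 each. miR-15a-5p was nearest to miR-133a-3p (0.09), miR-133a-5p (0.10) and miR-190a-5p (0.10), and miR-15b-5p to miR-126a-3p, miR-32-5p and miR-24-3p at 0.10 each. miR-497-5p was nearest to miR-350, miR-32-5p and miR-361-5p at 0.11 to 0.12. Within the family, miR-16-5p differed by 0.09 from miR-15a-5p and from miR-15b-5p, by 0.08 from miR-195-5p and by 0.12 from miR-497-5p. miR-195-5p and miR-497-5p differed by 0.09, less than either did from any miRNA outside the family. miR-15a-5p differed by 0.17 from miR-15b-5p and from miR-497-5p and by 0.15 from miR-195-5p, against a median of 0.22 over the miRNAs compared with it. miR-15b-5p differed by 0.13 from miR-195-5p and by 0.14 from miR-497-5p. All share the libraries and their scaling, so a common shift of a library brings any pair closer.

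The related miRNAs on the X chromosome gave other values. miR-322-5p, which has the family's seed, ran from 261 to 362 RPM in WKY (median 318), from 257 to 297 RPM in SHR (median 283) and from 199.7 to 313 RPM in QDG (median 260.2). All 6 libraries of SHR and of QDG lay below the WKY mean. Its log2 change was -0.17 ± 0.11 in SHR against WKY (SE, limma adjusted p = 0.294) and -0.29 ± 0.11 in QDG against WKY (SE, limma adjusted p = 0.0613), the latter passing under 7 of 15 alternatives, among them the replicate number as a block (0.0344), and without WKY replicate 1 (0.0206), QDG replicate 3 (0.0259) or QDG replicate 5 (0.0413). The opposite arm, miR-322-3p, whose seed AACAUGA is a different one, ran from 376 to 470.2 RPM in WKY, from 268 to 324 RPM in SHR and from 282 to 316 RPM in QDG. Neither SHR nor QDG overlapped with WKY, which was so for 10.2% and 8.05% of all tested miRNAs. It fell by 0.43 in SHR against WKY (limma adjusted p = 0.000326) and by 0.44 in QDG against WKY (limma adjusted p = 0.000350, 6 of 6 libraries each). Without WKY replicate 1 the changes of miR-322-3p were -0.44 and -0.46 (limma adjusted p of 0.000169 and 0.000162, with 25.9% and 19.5% of all miRNAs called).

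miR-503-5p, with the altered seed, ran from 59.9 to 97.1 RPM in WKY (median 74.3), from 60.2 to 76.7 RPM in SHR (median 65.4) and from 44.7 to 73.3 RPM in QDG (median 61.2). Its log2 change was -0.19 ± 0.12 in SHR against WKY (SE, limma adjusted p = 0.320) and -0.36 ± 0.12 in QDG against WKY (SE, limma adjusted p = 0.0419). The QDG against WKY call was kept under 11 of 15 alternatives. It was lost without WKY replicate 2, 3, 4, 5 or 6 or QDG replicate 1, 2, 4 or 6 (limma adjusted p of 0.0521 to 0.122). Without WKY replicate 1 the log2 change was -0.25 in SHR against WKY (limma adjusted p = 0.128). In QDG against WKY it was then -0.43 (limma adjusted p = 0.0108, 19.5% of all miRNAs called). miR-503-3p had -0.27 ± 0.12 (SE, limma adjusted p = 0.117) and -0.31 ± 0.12 (SE, limma adjusted p = 0.0925) in the same comparisons, and passed without WKY replicate 1 in the first (0.0365) and without WKY replicate 1 (0.0283) or QDG replicate 3 (0.0341) in the second. Of these 4 rows, 1 was lower in SHR against WKY, where 23.2% of all miRNAs were called, and 2 in QDG against WKY, where 17.8% were. In QDG against SHR limma called 0 of them and 0% of all, and 0 had an unadjusted p under 0.05. Whether they differed from the family rows was not tested. miR-6216 was on the same list by name, though its seed AUACACA is unrelated. It had 0 reads in 6 of 6 WKY libraries, 3 to 9 reads in each SHR library and 1 to 7 in each QDG library, and did not pass the filter of the main test. With no filter limma called miR-6216 in SHR against WKY (adjusted p = 0.000131) and in QDG against WKY (adjusted p = 0.00398), where it called 98 and 71 of 599 miRNAs. A count of 0 allows up to 0.458 to 0.671 RPM in the WKY libraries (3 reads, counting error only). miR-6216 ran from 0.524 to 1.54 RPM in SHR and from 0.182 to 1.17 RPM in QDG. These bounds hold for single libraries, and none was taken over the 6 WKY libraries together. All 6 were at 0 while every SHR and QDG library had reads, but complete absence from WKY hearts cannot be read from these counts.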

How the data were processed

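Small RNA libraries were made from 1 µg of total RNA with a NEBNext small RNA kit, per the labels' protocols. FastQC, TopHat2 and limma are named, with no role, in the submitters' processing notes. Genome build, miRNA annotation and the handling of reads matching several miRNAs were not given in the sources used here. The deposited files hold, per their headers, 1 normalized signal for each mature miRNA. In each library they were whole multiples of 1 step, so they are reads scaled to 1000000, and 10782 of 10782 values came out within 0.01 of a whole read. Sums exceed 1000000 because the divisor, 4449279 to 7403775 reads, is smaller than the reads over all miRNAs. How the divisor was chosen is not stated. Nor is it stated whether a read matching several miRNAs was counted under each name. Percentages of listed reads and tests on recovered reads carry that uncertainty.

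limma (3.58.1, R 4.3.3; trend and robust moderation) was fitted to log2(RPM + 1) of all 18 libraries for the 410 miRNAs that reached 1 RPM in 6 or more libraries. Folds are on that scale and understate changes of scarce miRNAs. DESeq2 (1.42.0), limma-voom and the quasi-likelihood test of edgeR (4.0.16) on the recovered reads, 5 other scalings, pseudocounts of 0.5 and 5, other filters and left-out libraries were alternatives. Leaving out WKY replicate 1 and QDG replicate 4 together, and leaving out libraries under TMM scaling, were chosen after seeing the data. Each single library was left out by plan on the authors' scaling, but WKY replicate 1 was singled out for the text by its values. edgeR on those reads called 89 miRNAs in SHR against WKY, 0 in QDG against SHR and 83 in QDG against WKY. limma was tested on simulated data. Groups and replicate numbers came from titles. The members and lists were chosen with earlier results of these data known. All 10 family rows, the related rows and the 3 miRNAs most alike to each guide were named.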

Additional observations from a re-analysis of the deposited data

Results flagged for a closer look

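Of 48 sets of 6 libraries (each tested family or related row, the sum of the guides and the arm balances, in each group), 1 held a library far from the others, where chance gives about 1 in 20. miR-497-5p had 145 RPM in WKY replicate 1, while the other 5 WKY libraries lay between 188 and 210 RPM. The gap to the nearest library was 0.656 of the range of the group, above the limit of Dixon's test for 6 values.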

How the results depend on the processing

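On the authors' scaling no family row was called in any comparison. In SHR against WKY 1 row, miR-15b-5p, was called with TMM, RLE or upper quartile scaling, with a total without the 10 most abundant miRNAs, with TMM scaling without WKY replicate 1 and by edgeR and limma-voom, and 2 rows (also miR-16-5p) by DESeq2. In QDG against WKY 1 row, miR-15b-5p, was called with upper quartile scaling and 1 by DESeq2. The cause was not tested. Leaving out each library in turn on the authors' scaling gave 0 to 0 called rows in every comparison. Of 561 single values recomputed otherwise, 525 kept direction and call, 18 became called, 4 lost the call (miR-503-5p in QDG against WKY) and 14 changed sign, none of the last being called.

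The sign changes were small log2 values. miR-15a-5p in SHR against WKY had 0.018 with TMM, 0.044 with RLE and 0.067 with upper quartile scaling, 0.013 with all listed reads, 0.018 without the 10 most abundant, 0.023 by edgeR, 0.025 by limma-voom and 0.051 by DESeq2. Upper quartile scaling gave 0.0045 for miR-195-5p in QDG against SHR, and in QDG against WKY 0.043 for miR-15a-5p and 0.035 for miR-16-3p. In QDG against WKY miR-15b-3p had 0.015 by edgeR and 0.026 by DESeq2, and miR-16-3p had 0.0097 by DESeq2.

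Leaving out single libraries also turned uncalled signs. In SHR against WKY the range was -0.14 to 0.051 for miR-15a-5p, -0.087 to 0.20 for miR-15b-3p, -0.056 to 0.074 for miR-195-5p and -0.052 to 0.076 for miR-497-5p. In QDG against SHR the range was -0.092 to 0.035 for miR-15a-5p, -0.38 to 0.031 for miR-15b-3p, -0.076 to 0.0078 for miR-16-5p, -0.095 to 0.056 for miR-195-3p, -0.054 to 0.037 for miR-195-5p, -0.043 to 0.011 for miR-322-3p, -0.10 to 0.053 for miR-503-3p, -0.078 to 0.32 for the arm balance of miR-15b and -0.042 to 0.12 for the arm balance of miR-195. In QDG against WKY the range was -0.17 to 0.020 for miR-15a-5p, -0.34 to 0.043 for miR-15b-3p, -0.13 to 0.050 for miR-16-3p, -0.045 to 0.11 for miR-16-5p and -0.059 to 0.071 for miR-195-5p.

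Libraries with the same replicate number did not deviate together in every pair: the correlation was over 0.1 in 2 of 6 pairs of SHR and WKY, 1 of 6 of QDG and SHR and 4 of 6 of QDG and WKY, and 0, 0 and 1 libraries correlated best with their own number. The numbers were not taken as pairs. With the replicate number as a block limma called 93, 0 and 77 miRNAs against 95, 0 and 73, and 0 family rows in each comparison. The block changed 1 call among the related rows, miR-322-5p in QDG against WKY (limma adjusted p = 0.0344 against 0.0613), and no other among the rows named. The paired test of the arm balance gave 0 calls, but its smallest possible p is 0.03125 before adjustment over 9 tests, so this says nothing about stability.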
